A study of Homo sapiens with 6 samples.

Results

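S100 proteins are small calcium-binding proteins of vertebrates, and 9 of their genes were followed in SKOV3 cells, a human ovarian cancer cell line, after knockdown of EIF5A2. The 9 genes, S100A2, S100A4, S100A6, S100A10, S100A11, S100A13, S100A14, S100A16 and S100P, were taken by symbol from a table of 58825 gene identifiers. EIF5A2 encodes an isoform of the translation factor eIF5A. For 48 h the cells carried either a control siRNA without a target (NC, n = 3 libraries) or an siRNA against EIF5A2 (si-EIF5A2, n = 3 libraries), after which messenger RNA was sequenced. The series' comparison of the groups asks which transcripts change when EIF5A2 is depleted, and it rests on 1 cell line and 1 time point.

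S100 proteins carry a pair of EF-hand motifs, act mostly as dimers and have no enzymatic activity of their own. Calcium binding opens a surface with which the dimer holds other proteins, such as annexins or cytoskeletal proteins, and several members are also released from cells and bind cell-surface receptors such as AGER. Most of the genes lie in a cluster on the long arm of chromosome 1, beside the genes of the epidermal differentiation complex. Members of the family are known for altered expression in carcinomas, including those of the ovary.

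The libraries held between 46900204 and 74142267 estimated counts, and the deeper ones gave the smaller counting error. EIF5A2 itself was measured at 27.8, 29.7 and 29.9 CPM (counts per 1e06 counts, after scaling of the library sizes) in the 3 NC libraries and at 2.76, 4.04 and 4.27 CPM in the 3 si-EIF5A2 libraries. The silenced libraries therefore kept 12.7% of the NC mean (log2 fold change -2.98, SE 0.18, adjusted p = 1.6e-05). Marker genes of cell types were also read, which does not identify the cell line. Of 9 markers of epithelial and ovarian carcinoma cells, 8 exceeded 1 CPM in every library, while MUC16, which encodes the CA125 antigen, was at 0 in all 6. The NC means of the 8 ran from 1.55 CPM for EPCAM to 608 CPM for KRT8. Among them WT1 stood at 2.35, KRT19 at 3.22 and ERBB2 at 45.9 CPM. The leukocyte markers PTPRC and CD3E were at 0 in every library. The summed level of the epithelial list ranged from 1510 to 1670 CPM in NC and from 958 to 1170 CPM in si-EIF5A2. The means of KRT8 (608 to 376 CPM), KRT7 (382 to 209) and PAX8 (106 to 60.9) were lower after silencing. KRT18 (418 to 396), KRT19 (3.22 to 2.46), ERBB2 (45.9 to 45.4) and EPCAM (1.55 to 1.37) differed less, and WT1 was higher (2.35 to 3.05). A list of 4 endothelial markers summed to 27.8 to 32.2 CPM in NC and to 0.958 to 1.65 CPM in si-EIF5A2, mostly from CDH5, and 4 fibroblast markers stayed between 0.0638 and 3.15 CPM. Of 4 keratinocyte markers, KRT5, KRT14 and KRT1 were at 0 throughout, and the sum, which is KRT10 alone, ranged from 24.0 to 31.3 CPM in NC and from 36.7 to 40.9 CPM in si-EIF5A2. The part of these shifts in the S100 results was not tested.

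Of the 9 S100 genes, 7 passed the filter on low counts. A gene was called changed at an adjusted p under 0.05 (edgeR quasi-likelihood test, adjusted over 16208 genes) together with a fold change over 1.5. By this rule 2 S100 genes fell, S100A2 and S100A4, and 0 rose, against 24.6% of all genes tested that were called in either direction, 13.6% as lower and 11.1% as higher. At the same adjusted p without the fold limit, S100A10 and S100A11 passed too, which made 4 of 7 genes, against 36.9% of all genes tested. The median log2 fold change of the 7 was -0.23, between -2.12 and 0.32, beside -0.01 over all genes tested. The 2 called genes were 28.6% of the 7, both lower, and 7 genes are too few to set against the shares over all genes tested. The members differed mainly among themselves. The 2 genes that fell had the lowest levels of the 7 per kilobase of exon, and the abundant genes moved by less than 1.5 times.

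**Figure D1:**
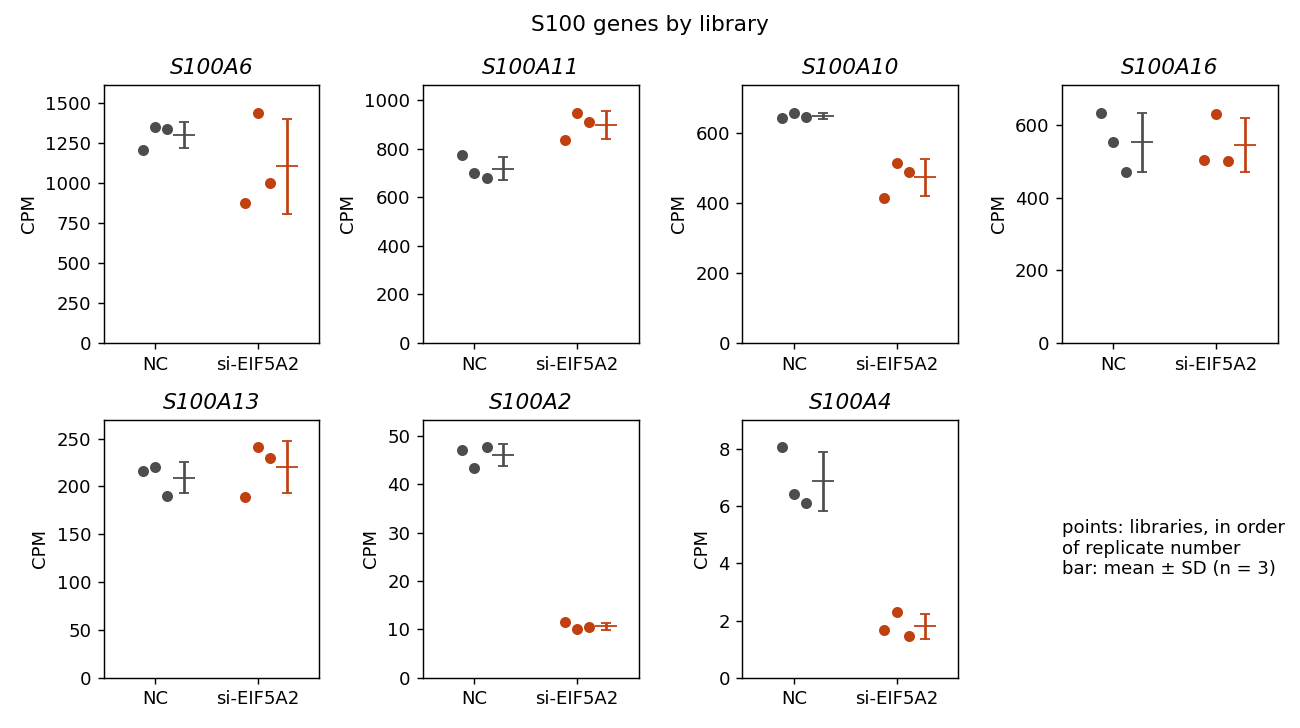
Level of 7 S100 genes in CPM (y axis, starting at 0 and scaled for each gene) in the 3 NC and 3 si-EIF5A2 libraries. Points are libraries and bars are mean ± SD; the groups lie apart for S100A2, S100A4, S100A10 and S100A11 and overlap for S100A6, S100A13 and S100A16.

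S100A2 (ENSG00000196754) had the largest fall of the S100 genes tested. It encodes a mainly epithelial S100 protein, found largely in the nucleus. The gene lies on the minus strand of chromosome 1 (GRCh38, chr1:153561108-153567890). It was measured at 47.03, 43.45 and 47.66 CPM in the controls and at 11.44, 9.996 and 10.46 CPM after EIF5A2 silencing. All 3 silenced libraries lay under every control, with little spread inside either group. The mean fell from 46.1 ± 2.27 to 10.6 ± 0.735 CPM (SD, n = 3 each), which is 23.1% of the control level (log2 fold change -2.12, SE 0.10, adjusted p = 6.71e-06). In bulk RNA, fewer cells that express a gene and less of its RNA per cell cannot be told apart.

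S100A4 (ENSG00000196154) fell by a similar factor from a much lower level. It encodes the metastasis-associated S100 protein that binds nonmuscle myosin IIA and is linked to cell motility. The gene lies at chr1:153543613-153550136 (GRCh38, minus strand), on the side of S100A2 that faces S100A6. Its NC libraries held 8.07, 6.43 and 6.12 CPM, and its si-EIF5A2 libraries held 1.66, 2.30 and 1.46 CPM. The groups did not overlap, and the highest value was the first control. The mean fell from 6.87 ± 1.04 to 1.81 ± 0.438 CPM, or 26.3% of the control (log2 fold change -1.93, SE 0.23, adjusted p = 4.41e-04). These values rest on 288 to 589 estimated counts per control library and 70 to 120 per silenced library. The fragments are fewer, since 1 fragment was worth about 3.81 counts. The level in silenced cells therefore carries a larger counting error than that of S100A2.

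Bases upstream of a RefSeq transcription start are shown for the 2 genes that fell and for S100A6, the most abundant member, which was not called. They come from the RefSeq promoter table (GRCh38.p14), are written 5′ to 3′ on the minus strand that carries the genes, and show motif matches in capitals. The runs of S100A4 and S100A6 lie inside untranslated exons of other annotated transcripts of these genes that start further upstream, and S100A2 has a second RefSeq start that is not shown. For S100A2 the 229 bases at chr1:153565866-153566094 are given, with a match to the AP-1 motif TGANTCA. For S100A4 a run of 30 bases around a TATA box, TATAAA, is given (chr1:153545820-153545849), and for S100A6 a run of 30 bases with 3 matches to the GC box GGGCGG, of which the last 2 overlap (chr1:153536057-153536086).
S100A2: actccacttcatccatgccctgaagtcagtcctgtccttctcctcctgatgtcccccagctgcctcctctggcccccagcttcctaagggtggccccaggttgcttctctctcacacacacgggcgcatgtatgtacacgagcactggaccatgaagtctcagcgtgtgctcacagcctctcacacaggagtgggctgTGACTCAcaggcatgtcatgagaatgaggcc
S100A4: gcctggctggggTATAAAtaggtcagacct
S100A6: ggcgcGGGCGGgacttGGGCGGGCGGggtg

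The 3 motifs were searched on both strands in the 250 bases upstream of each of 13 RefSeq starts of the 9 genes. The AP-1 motif begins 52 bases before an S100A2 start and was found in 1 of the 13 windows, while 6.57% of 35116 promoters of the same length hold it. S100A4, S100A13 and S100P have TATAAA, beginning 31, 29 and 28 bases before a start, in 3 of 13 windows beside 10.7% of all promoters. GGGCGG was found in 5 windows, those of S100A10, S100A11, S100A6, S100A16 and S100A13, beside 42.6% of all promoters. The windows of S100A2, S100A4, S100A14 and S100P do not hold it. Of the other S100 genes that were called, S100A3 has both GGGCGG and TGANTCA, and S100A5 has TGANTCA before 1 start but not before its other start. S100A12, which was at 0 in every library, has TGANTCA too, beginning 57 bases before its start. The upstream windows of S100A10 and S100A4 contain 71.2% and 62.8% G and C, and the one of S100A2 with the AP-1 match 59.2%, with a median of 58.0% over all promoters. Such matches describe the letters of these windows and are not measured binding sites.

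S100A10 (ENSG00000197747, chr1:151982915-151994390, GRCh38, minus strand) was lower by less than the fold limit. It encodes p11, an S100 protein that no longer needs calcium and binds annexin A2 at the cell surface, where the complex holds plasminogen and its activators. The NC libraries held 644, 659 and 646 CPM and the silenced ones 415, 516 and 490 CPM. No silenced library reached a control. The means were 649.6 ± 8.22 and 473.4 ± 52.6 CPM, so that 72.9% of the control level was left (log2 fold change -0.46, SE 0.09, adjusted p = 0.00525). The factor of 1.37 passed the test for a difference from 0 but not the fold limit.

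S100A11 (ENSG00000163191, chr1:152032506-152047907, GRCh38, minus strand) was the 1 member with all silenced libraries above all controls. Its protein, calgizzarin, binds annexins and takes part in membrane repair. It was measured at 774, 701 and 680 CPM in NC and at 836, 949 and 911 CPM in si-EIF5A2. The control mean of 718.4 ± 48.9 CPM compares with 898.7 ± 57.7 CPM after silencing, 125% of the control (log2 fold change 0.32, SE 0.08, adjusted p = 0.0153). This p was not stable: it was 0.064 without control 2, 0.0553 without control 3 and 0.0547 without silenced library 3. S100A10 and S100A11 are neighbours on the chromosome, and their directions differed. With the non-overlap of S100A2, S100A4, S100A10 and S100A11, 4 of 7 members had groups apart, beside 51.2% of all genes tested.

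S100A6 (ENSG00000197956, chr1:153534599-153536244, GRCh38, minus strand), or calcyclin, binds the ubiquitin ligase component CACYBP. It was measured at 1206, 1351 and 1339 CPM in NC and at 876.8, 1440.0 and 996.6 CPM in si-EIF5A2. The second silenced library was the highest of all 6, and the other two lay under every control. The means of 1299 ± 80.3 and 1105 ± 297 CPM did not differ beyond their spread (log2 fold change -0.23, SE 0.18, adjusted p = 0.373). Without the second silenced library the log2 fold change was -0.47 with an adjusted p of 0.00928, still under the fold limit. S100A6 shares 23 of its 971 exonic bases with the antisense gene BX470102.1, which held 66 to 166 counts per library, whereas S100A6 held 44849 to 95783.

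S100A16 (ENSG00000188643, chr1:153606886-153613145, GRCh38, minus strand), one of the most widely expressed S100 genes, was measured at 634, 552 and 471 CPM in NC and at 504, 630 and 501 CPM in si-EIF5A2. The groups covered nearly the same range. Their means were 552.4 ± 81.5 and 544.9 ± 73.5 CPM (log2 fold change -0.02, SE 0.13, adjusted p = 0.928), and the sign of this difference turned with the library left out.

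S100A13 (ENSG00000189171, chr1:153618787-153631360, GRCh38, minus strand) takes part in the release of FGF1 and interleukin 1 alpha, which lack a signal peptide. Its values were 216, 221 and 190 CPM in NC and 189, 241 and 230 CPM in si-EIF5A2, with overlapping groups. The means of 209.2 ± 16.4 and 219.9 ± 27.4 CPM gave a log2 fold change of 0.07 (SE 0.11, adjusted p = 0.652). Its exons share 536 of 2216 bases with AL162258.1 on the same strand and 235 bases with S100A1 on the other strand. AL162258.1 held 241 to 407 counts and S100A1 at most 74, against 8957 to 15803 counts assigned to S100A13.

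S100A14 and S100P were at the limit of detection. S100A14 (ENSG00000189334, chr1:153614255-153616986, GRCh38) is known from epithelial tumours, and S100P (ENSG00000163993, chr4:6693069-6697170, GRCh38) from pancreatic and other carcinomas, where it binds ezrin and AGER. The controls gave 5, 0 and 4 counts for S100A14, and 0, 8 and 0 were found after silencing. S100P held 0 counts in 5 libraries and 4 in the second silenced library. Since 1 fragment was worth about 3.81 of the deposited counts, these are at most about a couple of fragments, and no difference is detectable at this depth. With 0 counts, as many as 3 fragments could still have been missed, and 3 fragments correspond to between 0.157 and 0.243 CPM, depending on the library.

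Levels of different genes were compared per kilobase of exon. Among the NC libraries S100A6 stood highest at 1340 ± 82.7 CPM per kilobase, followed by S100A11 at 1060 ± 71.8, S100A10 at 421 ± 5.33, S100A16 at 325 ± 47.9, S100A13 at 94.4 ± 7.39, S100A2 at 29.4 ± 1.45 and S100A4 at 6.71 ± 1.02. No neighbours in this order overlapped in range until S100A14 and S100P. After silencing, S100A11 came first at 1320 ± 84.9 and S100A6 second at 1140 ± 306 CPM per kilobase, with ranges that overlapped. S100A16, at 320 ± 43.2, and S100A10, at 307 ± 34.1, also overlapped, while S100A13 at 99.2 ± 12.4, S100A2 at 6.78 ± 0.469 and S100A4 at 1.76 ± 0.427 CPM per kilobase kept their places. The order of S100A6 and S100A11 after silencing depended on the length used: per kilobase of the longest transcript, S100A6 stood at 1641 and S100A11 at 1513.

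**Figure D2:**
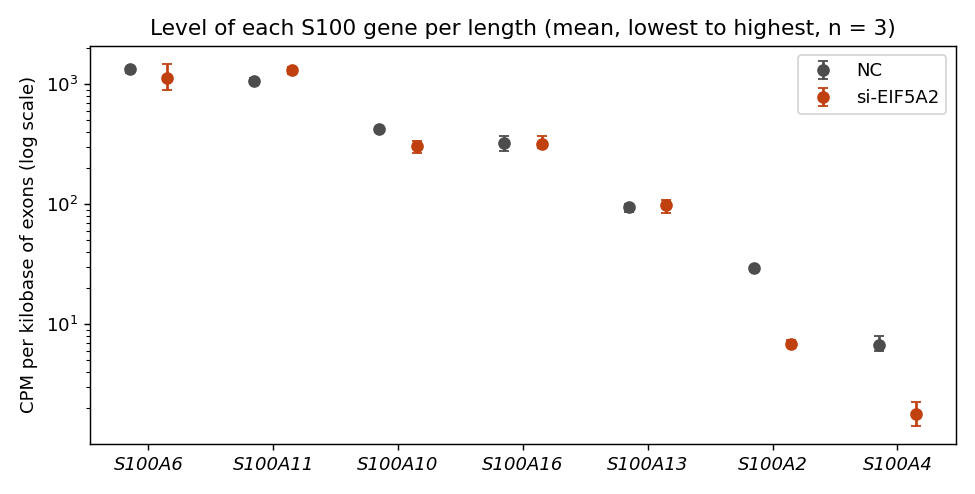
Level of S100 genes in CPM per kilobase of merged exons (log axis) in NC and si-EIF5A2; markers are means and bars run from the lowest to the highest of 3 libraries. S100A6, at 1340 in NC, and S100A11, at 1320 in si-EIF5A2, lead the order, and S100A2 and S100A4 stand lowest in both groups.

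The summed level of the 9 genes was 3480 ± 86.9 CPM in the controls and 3250 ± 488 CPM after silencing (exact permutation test, 2-sided, p = 0.6). The shares of single genes were taken from levels per kilobase. By this measure S100A11 made up 31.2% to 34.4% of the sum in the controls and 37.7% to 44.0% in the silenced libraries. S100A2 and S100A4 together went from 1.03% to 1.15% of the sum to 0.233% to 0.320%. For both shares the exact permutation p was 0.1, the smallest that 3 against 3 libraries can give. S100A10 was also set against S100A11 and against ANXA2, the gene of its binding partner. The ratio of S100A10 to S100A11 per kilobase was 0.400 ± 0.0284 in NC and 0.232 ± 0.0114 in si-EIF5A2, and that of S100A10 to ANXA2 was 0.827 ± 0.0591 and 0.538 ± 0.0535. The size of such a ratio depends on the length used: per kilobase of the longest transcript, an alternative chosen after seeing the data, S100A10 to ANXA2 was 0.425 ± 0.0303 in NC and 0.276 ± 0.0275 in si-EIF5A2, while the relation between the groups is the same by construction. Neither ratio overlapped between the groups (exact permutation p = 0.1 each, again the smallest possible). For S100A10 to S100A11 this was fixed in advance, because both genes were already apart between the groups, in opposite directions. That ratio is a description and adds no test.

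**Figure D3:**
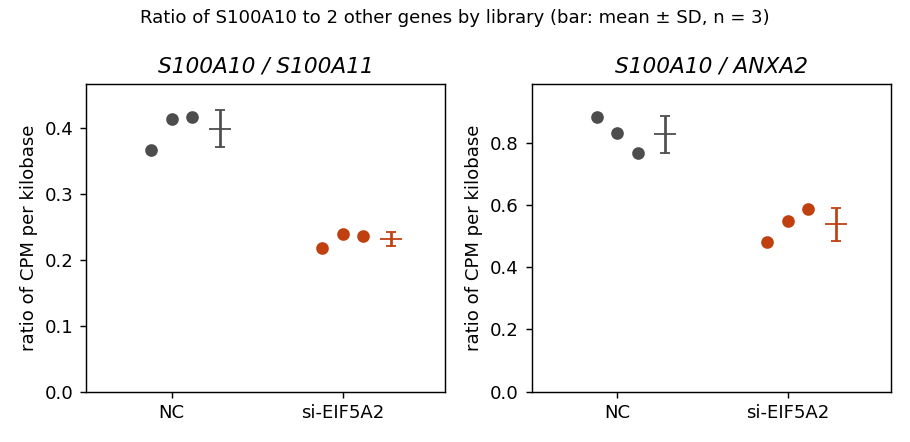
Ratio of S100A10 to S100A11 (left) and to ANXA2 (right), each in CPM per kilobase of merged exons, by library (points) with mean ± SD (bars, n = 3). Control ratios of S100A10 to ANXA2 range from 0.766 to 0.884 and silenced ones from 0.481 to 0.587. The left ratio joins genes that were already apart between the groups in opposite directions.

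The other 12 S100 genes were described beside the 9. In these cells 8 of them, among them the inflammatory genes S100A8, S100A9 and S100A12 and the psoriasin gene S100A7, were at 0 in every library, and S100Z held at most 8 counts. Of the 3 that passed the filter, 2 were called and both fell, S100A3 and S100A5, where 13.6% of all genes tested were called lower; 3 genes are too few to set against that share. S100A3, known from the hair cuticle, was measured at 24.3, 19.0 and 18.0 CPM in NC and at 7.68, 9.33 and 7.81 CPM in si-EIF5A2, with the groups apart (log2 fold change -1.30, SE 0.16, adjusted p = 4.28e-04). S100A5, known from olfactory neurons, held 53, 88 and 54 counts in NC and 7, 12 and 23 in si-EIF5A2 (log2 fold change -1.88, SE 0.57, adjusted p = 0.0339). It passed the filter through its control libraries, and its call was lost when control 2, control 3, silenced library 1 or silenced library 2 was left out (adjusted p = 0.115, 0.0895, 0.0777 and 0.089 in that order). S100A1, which was not called, held 61 to 74 counts in NC and 16, 64 and 0 in si-EIF5A2.

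Along chromosome 1 the S100 genes called lower stood next to each other. S100A10, which was lower by less than the fold limit (log2 fold change -0.46, adjusted p = 0.00525), lies away from them, beside S100A11. S100A4, S100A3 and S100A2 are consecutive (chr1:153543613-153567890, GRCh38), and each was called lower in all 14 alternatives run for it. S100A5, between S100A4 and S100A6, was also called lower, but from few counts and with a call that was lost in 4 of the 6 fits that left out 1 library. S100A6 and S100A16, the next S100 genes on either side, were not called. S100A3 lies within the span of S100A4 on the same strand without a shared exon. This grouping was seen after the values were known, and neighbouring genes are not independent samples of the region.

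**Figure D4:**
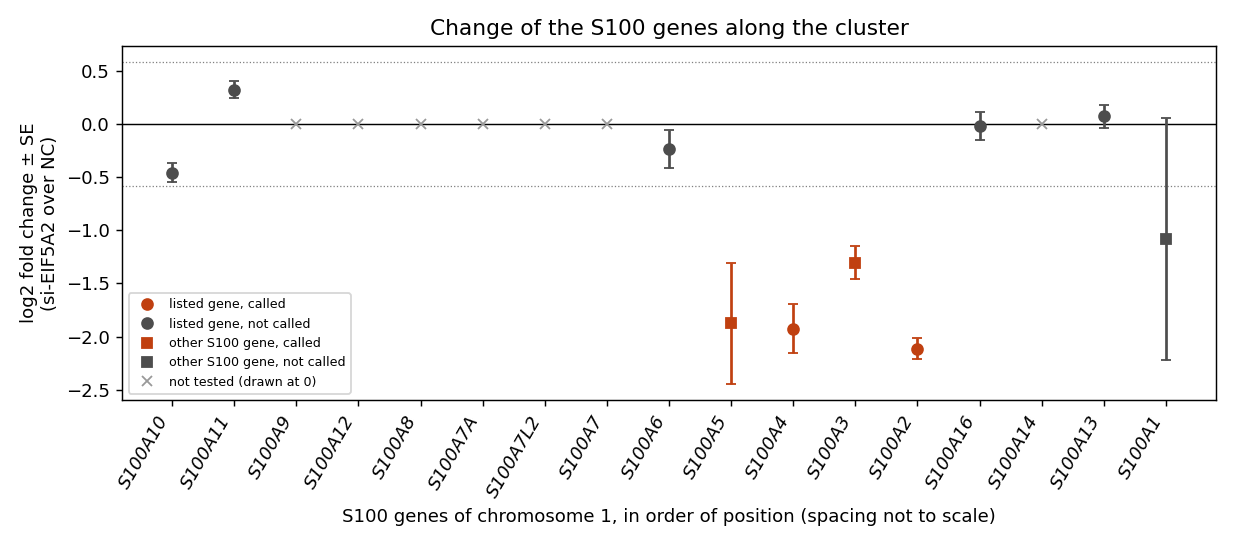
Log2 fold change (si-EIF5A2 over NC, y axis) ± SE of the S100 genes in their order along chromosome 1, with the genes named at the start as circles, other S100 genes as squares, called genes in colour, untested genes as crosses at 0, and dotted lines at a fold change of 1.5. The consecutive S100A4, S100A3 and S100A2 lie between -1.30 and -2.12, S100A5 lies at -1.88 with an SE of 0.57, while S100A6 at -0.23 and S100A16 at -0.02 flank them.

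Of 35 other genes around the S100 cluster, 21 passed the filter and 7 were called, 2 higher and 5 lower, or 33.3% beside 24.6% over all genes tested, and the median log2 fold change was -0.08. TUFT1, which encodes tuftelin, rose from 12.2 ± 0.912 to 27.3 ± 2.18 CPM (log2 fold change 1.16, SE 0.11, adjusted p = 1.53e-04). The fall of SNAPIN, a SNARE-associated protein gene, was from 27.8 ± 2.77 to 13.5 ± 0.511 CPM (log2 fold change -1.05), and that of INTS3, of the Integrator complex, from 45.7 ± 3.08 to 22.5 ± 2.57 CPM (-1.02). THEM4, CRTC2 and CREB3L4 fell by 0.90, 0.78 and 0.66 on the log2 scale, and CREB3L4 lost its call without silenced library 2 (log2 fold change -0.58, under the fold limit). NPR1, a natriuretic peptide receptor gene, was called higher at 1.70 from only 11 to 37 counts per library; it passed the filter through its silenced libraries, and the call was lost without any 1 library of the 6 (adjusted p up to 0.129). The epidermal genes RPTN, HRNR, FLG2, CRNN, IVL and LORICRIN, which lie between S100A11 and S100A9, were at 0 in every library. TCHH and FLG, in the same stretch, held at most 23 and 10 counts and did not pass the filter.

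Genes whose proteins bind S100 proteins or act with them were then examined by the S100 protein they belong to. All 28 passed the filter, and 9 were called, 4 higher and 5 lower, or 32.1% beside 24.6% over all genes tested, and the median log2 fold change was 0.05. Genes named below without a call were chosen after their values were seen, as S100A1 was above.

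Around S100A10, AHNAK, the giant scaffold protein that binds the complex of p11 and annexin A2, fell most. It was measured at 1501, 1588 and 1503 CPM in NC and at 403, 345 and 493 CPM in si-EIF5A2 (log2 fold change -1.89, SE 0.13, adjusted p = 2.95e-05), with the groups far apart. PLAT, tissue plasminogen activator, fell from 89.3 ± 4.69 to 34.5 ± 5.79 CPM (-1.37, SE 0.13, adjusted p = 1.42e-04). ANXA2 itself, at 4504 ± 329 CPM in the controls and 5031 ± 322 CPM after silencing, did not pass the test (0.16, SE 0.08, adjusted p = 0.16). For the urokinase gene PLAU the log2 fold change was -0.35, under the fold limit (adjusted p = 0.00529), and for its receptor gene PLAUR it was 0.07 (adjusted p = 0.552).

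Among the annexins that S100A11 and S100A6 bind, ANXA6 rose from 391.9 ± 36.6 to 706.5 ± 53.6 CPM (log2 fold change 0.85, SE 0.09, adjusted p = 2.81e-04). ANXA1 and ANXA5 had log2 fold changes of 0.38 and 0.37 (adjusted p = 0.00657 and 0.00932), and so passed the adjusted p but not the fold limit, while ANXA11 stood at 0.11 (adjusted p = 0.387). CACYBP, the partner of S100A6, stood at 126.6 ± 12.9 CPM in the controls and 128.7 ± 3.10 CPM after silencing (adjusted p = 0.864).

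MDM2, which encodes a ubiquitin ligase, rose from 76.4 ± 3.22 to 132.1 ± 27.8 CPM (log2 fold change 0.79, SE 0.15, adjusted p = 0.00413). Of the myosin heavy chains that S100A4 binds, MYH10 fell from 27.4 ± 1.30 to 14.1 ± 1.76 CPM (-0.95, SE 0.12, adjusted p = 5.57e-04). MYH9, the main target, was higher by 0.52 on the log2 scale (SE 0.07, adjusted p = 6.04e-04), under the fold limit.

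The cargo genes of the S100A13 release route both rose. IL1A went from 90.0 ± 6.79 to 168.6 ± 19.8 CPM (log2 fold change 0.91, SE 0.10, adjusted p = 3.51e-04). FGF1 rose from 12.9 ± 1.02 to 19.5 ± 1.77 CPM (0.60, SE 0.12, adjusted p = 0.00586), a factor of 1.51 that fell under the fold limit in 3 alternatives. SYT1, the synaptotagmin of that route, was at 4.17 ± 0.611 and 5.41 ± 0.607 CPM (adjusted p = 0.151). Of the receptors for released S100 proteins, TLR4 was called lower, from 1.23 ± 0.234 to 0.491 ± 0.108 CPM (-1.32, SE 0.38, adjusted p = 0.028), from 19 to 97 counts per library, and lost the call without control 2, control 3, silenced library 1 or silenced library 2 (adjusted p = 0.0996, 0.0803, 0.0731 and 0.0546). AGER, at 1.16 ± 0.470 and 0.956 ± 0.158 CPM, did not pass (adjusted p = 0.645). The S100P partner genes EZR and IQGAP1 had log2 fold changes of 0.00 (adjusted p = 0.983) and 0.54 (adjusted p = 0.00154), neither past the fold limit. S100PBP, also on the partner list, stood at -1.15, past the fold limit but not the test (SE 0.68, adjusted p = 0.255).

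**Figure D5:**
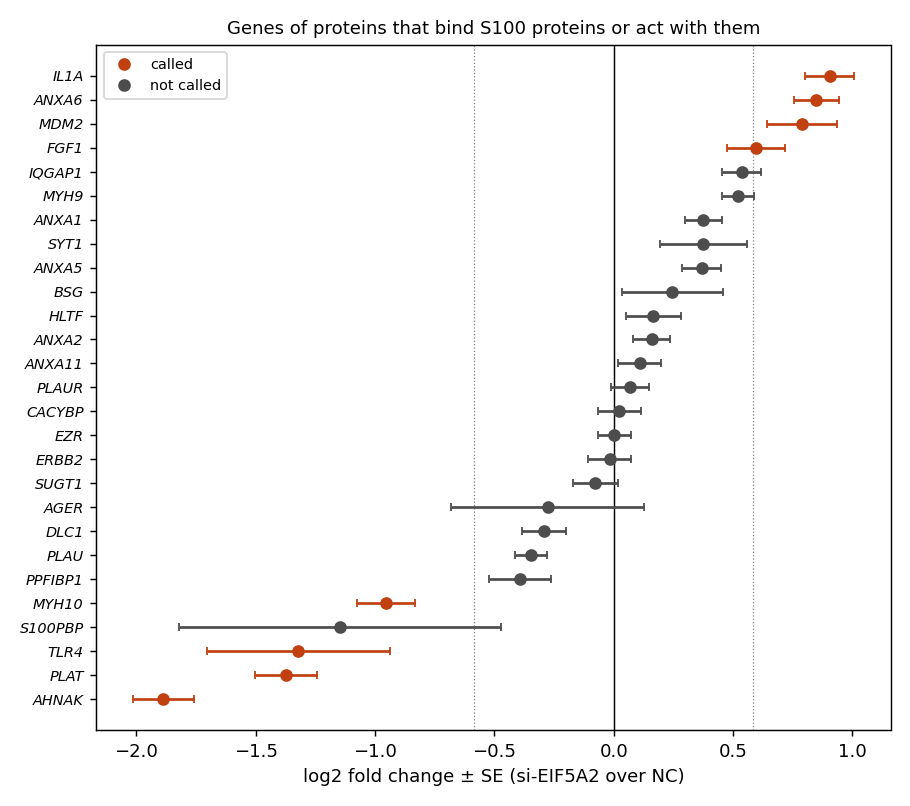
Log2 fold change (si-EIF5A2 over NC) ± SE of 27 of the 28 genes whose proteins bind S100 proteins or act with them; dotted lines mark a fold change of 1.5 and coloured points the 8 of them that were called. AHNAK at -1.89 and IL1A at 0.91 are the ends of the range.

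The genes whose level over the 6 libraries was most like that of S100A2 were PIP4K2A (Pearson r of log2 CPM 0.999), CCNI (0.999) and IGF2BP2 (0.999). They went from 60.7 to 40.0 CPM, from 251 to 88.3 CPM and from 426 to 135 CPM. With 6 libraries in 2 groups such values follow mostly from the difference between the groups, and 279 of the genes averaging 10 CPM or more had an r over 0.99.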

How the data were processed

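RNA of SKOV3 cells was made into mRNA libraries and sequenced as paired ends. The authors used StringTie and ballgown, and the deposited values are estimated counts per gene, given as whole numbers without normalization. Low values lie near multiples of 3.81, so 1 fragment is worth several counts. The aligner and the human build are not given in the sources used here; the submitters' processing notes name Bowtie 0.12.2 and the mouse builds mm8 and mm9, while all identifiers are human. Of 58825 identifiers, 58552 were found in GENCODE release 29 (GRCh38), the source of positions and exon lengths. StringTie divides fragments between overlapping transcripts, so genes with shared exons are less certain, and whether strand was used is not given.

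The test was planned for counts. The estimated counts needed no rounding, and edgeR 4.0.16 (R 4.3.3) was used as planned: filterByExpr, TMM, robust quasi-likelihood fit with condition as the only term, and Benjamini-Hochberg adjustment over 16208 genes. A call required both an adjusted p under 0.05 and a change by more than 1.5 times. SE is the log2 fold change over the square root of F. CPM use TMM library sizes. Single values were compared with 2-sided exact permutation tests, for which 3 against 3 libraries cannot give a p under 0.1. Nothing in the labels says whether replicates were separate cultures, so p-values measure the spread between these libraries, which may be technical. Limits from a count of 0 cover counting error only.

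The text names the 9 S100 genes, EIF5A2, the called genes of each list and the 3 genes most like the called member with the largest change; others are named as chosen after their values were seen. Called genes include 1 that is not reported here. The members and lists were chosen with earlier results of these data known. Promoters come from RefSeq (GRCh38.p14), with all 9 genes matched; sequence inside annotated untranslated exons is given only as runs of up to 30 bases. Protein sequences were not used here. The fit was tested on simulated data. Alternatives were DESeq2 1.42.0, other normalizations and filters, other thresholds, a replicate block, and leaving out each library.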

Additional observations from a re-analysis of the deposited data

How the results depend on the processing

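S100A2 and S100A4 were called lower in each of the 14 alternatives run for each gene, with log2 fold changes from -2.18 to -2.07 and from -2.14 to -1.80. The number of S100 genes called was 2 under every alternative except an adjusted p with no fold limit, which gave 4, of which 1 was higher. The log2 fold change of S100A16 turned to 0.09 without the first control, to 0.03 without the first silenced library and to 0.03 without the third, between -0.14 and 0.09 over all libraries left out. Of the other S100 genes, 1 in place of 2 was called when at least 10 counts were required in every library and when counts were divided by their step of 3.81, an alternative chosen after seeing the data, and 1 to 2 when single libraries were left out; S100A5 was the gene not called. Partner genes called numbered 4 with an unadjusted p under 0.05 and a fold change over 2, and 16 with an adjusted p and no fold limit, in place of 9. The former threshold left 4 of the 7 neighbour genes. Per kilobase of the longest transcript, S100A6 (1641) and not S100A11 (1513) stood highest after silencing.

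The labels do not say whether replicate numbers shared between the groups pair the libraries. Over the genes tested, the deviations of same-numbered libraries from their group means correlated at -0.0244, 0.00522 and -0.00269. Such values cannot exclude a pairing that acts on some genes. The partner gene S100PBP, named after its values were seen, was lowest in replicate 3 of both groups. It held 16.2, 16.9 and 4.70 CPM in NC and 7.64, 7.22 and 2.23 CPM in si-EIF5A2 (adjusted p = 0.255 without a replicate block, not called). With the replicate number as a block, 2 S100 genes were called, both lower, and 3731 in place of 3992 of all genes. The adjusted p of S100A11 was 0.0505 there, and TLR4 (0.0598) and NPR1 (0.111) were no longer called. Partner genes called still numbered 9, so that another partner gene was called in place of TLR4. Of the partner genes not called without the block, S100PBP alone was past the fold limit there (log2 fold change -1.15). Its own value with the block is not given here. Depth limits S100A14 and S100P, which could not be tested, and S100A5, TLR4 and NPR1, whose calls rest on under 100 counts per library. With 1 fragment worth about 3.81 counts, the fragments are fewer still. S100A5 and NPR1 no longer passed the filter when counts were divided by this step. S100A5 also failed the filter that required at least 10 counts in every library.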
